A study of Homo sapiens with 9 samples.

Results

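The germinal-centre B-cell transcription factors were taken by gene symbol: BCL6, BACH2, PAX5, EBF1, IRF8, SPIB, POU2AF1, MEF2B, MEF2C and LMO2, 10 of the 25370 gene symbols in the deposited count table. They encode DNA-binding factors, a bridging factor and a coactivator that set B-cell identity and the germinal-centre state. The counts come from OCI-Ly1, an established human diffuse large B-cell lymphoma line, kept for 48 h in DMSO, the vehicle, or in JIB-04 at 150 nM or 500 nM. Each condition had 3 libraries of ribosomal RNA-depleted total RNA. JIB-04 is a compound that inhibits histone demethylases of the Jumonji family, and the series is about the demethylases KDM4A and KDM4C in this lymphoma. All libraries come from 1 cell line, carry no genetic change that differs between groups by their labels, and are not stated to be separate cultures. The p-values therefore rest on the spread among these 9 libraries, which may be technical.

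In a germinal centre, activated B cells divide quickly, mutate their antibody genes and are selected before they leave as memory or plasma cells. BCL6 is a repressor that holds cells in this state by silencing checkpoint, cell-death and plasma-cell genes, and BACH2 is a second repressor that opposes plasma-cell differentiation. PAX5 and EBF1 establish and maintain B-lineage identity, while SPIB, IRF8, the octamer coactivator POU2AF1 and the MEF2 factors drive B-cell and germinal-centre genes. Lymphomas of germinal-centre origin usually keep much of this network.

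The line carried B-cell and germinal-centre RNA. In DMSO, CD79A averaged 206 ± 7.90 CPM (counts per 1000000 counts, scaled by the trimmed mean of M-values, TMM), and the germinal-centre surface enzyme gene MME 404 ± 11.5 CPM (SD, n = 3 each). SERPINA9, also a germinal-centre marker, was at 0.124 ± 0.118 CPM. Depth ran from 28476845 to 57198613 counts per library. Libraries of a group correlated at r = 0.987 to 0.9932 across genes, and libraries of different groups at 0.9584 to 0.9912.

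Several of these factors are known to act on each other's genes. BCL6 is known to bind its own first exon and lower its own transcription, and POU2AF1 acts at the octamer sequence. RefSeq promoter windows on GRCh38.p14, from 250 bases before to 50 bases after a start site, were at hand for 8 of the 10 genes (16 windows, 7 of them of MEF2C). They were searched on both strands for 8 motifs, with letters chosen with the BCL6 window in view. These were the BCL6 motif TTCNTAGAA, the octamer ATGCAAAT, PU.1/SPIB GAGGAA, AP-1/MARE TGANTCA, ATF4 TGATGNAA, and motifs of EBF, MEF2 and IRF factors. The 3 windows below are shown because they hold matches to the BCL6 motif or, for MEF2B, the octamer, in capitals, in BCL6 itself, in MEF2C and in MEF2B. The BCL6 window, 1 of 2 for that gene, is chr3:187745419-187745718, the MEF2C window is chr5:88904056-88904355 and the MEF2B window is chr19:19170214-19170513, all on the minus strand and printed 5′ to 3′.
BCL6: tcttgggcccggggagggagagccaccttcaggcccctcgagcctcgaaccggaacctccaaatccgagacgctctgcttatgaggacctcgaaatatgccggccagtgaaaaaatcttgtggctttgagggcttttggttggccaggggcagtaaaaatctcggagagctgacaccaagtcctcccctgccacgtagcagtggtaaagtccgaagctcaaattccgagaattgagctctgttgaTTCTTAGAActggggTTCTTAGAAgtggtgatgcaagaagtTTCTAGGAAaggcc
MEF2C: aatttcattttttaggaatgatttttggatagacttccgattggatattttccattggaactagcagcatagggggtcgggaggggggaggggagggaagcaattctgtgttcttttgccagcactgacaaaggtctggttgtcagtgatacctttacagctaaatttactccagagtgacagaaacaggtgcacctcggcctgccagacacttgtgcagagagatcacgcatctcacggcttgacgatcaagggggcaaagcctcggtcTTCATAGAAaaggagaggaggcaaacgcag
MEF2B: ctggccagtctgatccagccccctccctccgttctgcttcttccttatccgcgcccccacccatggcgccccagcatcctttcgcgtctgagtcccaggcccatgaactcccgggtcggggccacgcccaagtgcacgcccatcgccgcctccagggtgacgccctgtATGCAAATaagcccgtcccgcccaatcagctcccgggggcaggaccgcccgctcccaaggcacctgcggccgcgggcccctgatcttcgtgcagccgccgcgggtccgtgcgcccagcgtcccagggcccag

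The BCL6 window held 3 matches to TTCNTAGAA, starting 5 bases before the start site and 11 and 37 bases after it, with no overlap between them. At least 1 match was present in 0.948% of all 35116 promoter windows, and 3 or more in 1 window, that of BCL6. The motif letters were chosen with this window in view, so these shares cannot test whether matches are enriched at BCL6. The MEF2C window held 1 match, 21 bases after its start site, and the other 6 MEF2C windows held none. The octamer was present in 1.77% of windows. Among the 16 windows it was found in that of MEF2B and in another of MEF2C. Of the other motifs, GAGGAA matched in the PAX5 window and in 4 MEF2C windows (27.9% of all windows), TGANTCA in a BCL6 and a MEF2C window (7.71%), and TGATGNAA in a BCL6, the EBF1 and a MEF2C window (3.62%). The EBF, MEF2 and IRF motifs, found in 1.21%, 2.73% and 3.57% of all windows, had no match in the 16. A match is a run of letters and not a measured binding site, and the counts, summed per gene, do not say which start site was used.

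Levels between genes were compared per kb of annotated exon, using GENCODE 29 lengths that are not those of the authors' annotation. In DMSO, POU2AF1 stood highest at 63.6 ± 2.32 CPM per kb, followed by BCL6 at 56.6 ± 1.47 CPM per kb and IRF8 at 30.0 ± 0.380 CPM per kb (SD, n = 3 each). PAX5, SPIB and BACH2 lay close together at 24.8, 23.5 and 22.0 CPM per kb, MEF2C at 18.6 and EBF1 at 16.0 CPM per kb. PAX5 and SPIB had overlapping libraries, so their order is not resolved, whereas the libraries of the other neighbours in this order did not overlap.

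LMO2 was at the bottom of the order, at 0.00639 ± 0.0111 CPM per kb in DMSO. The MEF2B row gave 0.166 ± 0.105 CPM per kb, but it was not ranked, since it may miss reads shared with overlapping genes. At 150 nM the libraries of POU2AF1 and BCL6 overlapped, at 58.3 and 57.8 CPM per kb. With 500 nM JIB-04 the order changed. BCL6, at 58.1 CPM per kb, stood above POU2AF1, at 51.5 CPM per kb, and BACH2 took the third place at 33.6 CPM per kb.

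**Figure D1:**
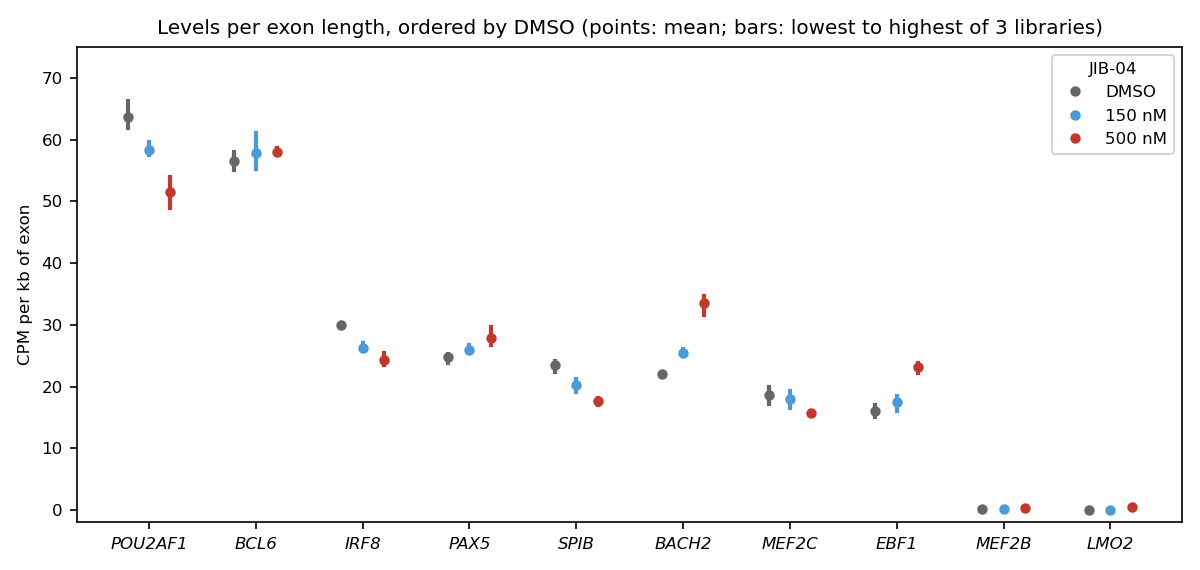
Level of each gene in CPM per kb of annotated exon, with DMSO, 150 nM and 500 nM JIB-04 side by side; points are means and bars span the lowest to the highest of 3 libraries. POU2AF1 and BCL6 stand above the other genes in every group and exchange places at 500 nM, LMO2 lies near 0, and the MEF2B row, also near 0, may miss reads shared with overlapping genes.

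At 500 nM JIB-04 the network split. BACH2, EBF1 and PAX5 rose above DMSO, SPIB, POU2AF1, IRF8 and MEF2C fell, and BCL6 did not pass the test. These 8 genes exceeded the low-count filter (0.230 CPM) in all 9 libraries. Of them 3 rose, 4 fell and 1 was not called at an adjusted p under 0.05 (edgeR's quasi-likelihood test, Benjamini-Hochberg adjustment over 15089 tested genes). Over all tested genes, 52% were called, 26.3% higher and 25.6% lower. For 7 of the 8 genes every 500 nM library lay on one side of every DMSO library, against 59.2% of tested genes. MEF2B and LMO2 exceeded it in fewer libraries and are given apart: MEF2B in all 3 at 500 nM, 1 at 150 nM and 2 in DMSO, and LMO2 in all 3 at 500 nM, 1 at 150 nM and 0 in DMSO. The median log2 fold change of the 8 genes was -0.10, with a range of -0.42 to 0.61, against a median of 0.01 over all tested genes.

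Of the repressors, BCL6 did not differ beyond the threshold. It had 235, 223 and 230 CPM in the DMSO libraries, 231, 224 and 247 CPM at 150 nM, and 235, 233 and 237 CPM at 500 nM. The 3 groups overlapped. Its log2 fold change at 500 nM against DMSO was 0.04 ± 0.05 (SE, n = 3 per group), with a 95% interval of -0.07 to 0.14 and an adjusted p of 0.557. Without TMM scaling, by total counts alone, it was called higher (0.18, adjusted p = 0.0035). That scaling places the median of all tested genes at 0.15.

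BACH2 rose most among the 8 genes. It had 206, 202 and 206 CPM in the DMSO libraries, 242, 233 and 232 CPM at 150 nM, and 294, 319 and 322 CPM at 500 nM. All 3 groups were separate from each other. At 500 nM the increase was 52.3%, a log2 fold change of 0.61 ± 0.05 (adjusted p = 5.36e-11), and 84.4% of tested genes had a lower log2 fold change.

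The B-lineage identity factors PAX5 and EBF1 both rose, by different amounts. EBF1 had 83.8, 79.4 and 89.5 CPM in the DMSO libraries, 84.7, 94.1 and 97.1 CPM at 150 nM, and 117, 125 and 125 CPM at 500 nM. The 500 nM libraries lay above all others, and the other groups overlapped. Its change at 500 nM was 45.1%, a log2 fold change of 0.54 ± 0.06 (adjusted p = 4.66e-08).

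PAX5 had 218, 217 and 205 CPM in the DMSO libraries, 230, 219 and 221 CPM at 150 nM, and 231, 256 and 236 CPM at 500 nM. Its groups were separate by narrow margins. The log2 fold change at 500 nM was 0.17 ± 0.05 (adjusted p = 0.00639), an increase of 12.8%. Without 500 nM replicate 2, its highest library, PAX5 was not called (0.13, adjusted p = 0.0716).

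The activators of B-cell and germinal-centre genes moved the other way. SPIB, an ETS-family factor, had 91.6, 90.9 and 84.6 CPM in the DMSO libraries, 80.7, 77.4 and 72.6 CPM at 150 nM, and 66.4, 64.6 and 69.1 CPM at 500 nM. Each dose lay below the one before it with no overlap. SPIB fell furthest of the 8 genes at 500 nM, by 0.42 ± 0.06 on the log2 scale (adjusted p = 2.66e-06).

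IRF8, an interferon regulatory factor that partners with ETS factors, had 126, 124 and 127 CPM in the DMSO libraries, 113, 109 and 109 CPM at 150 nM, and 106, 98.8 and 101 CPM at 500 nM. All 3 groups were separate. IRF8 fell by 0.30 ± 0.05 on the log2 scale at 500 nM (adjusted p = 4.81e-05).

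POU2AF1, the coactivator of octamer-binding factors, had 207, 218 and 204 CPM in the DMSO libraries, 197, 190 and 189 CPM at 150 nM, and 161, 170 and 178 CPM at 500 nM. Its groups did not overlap either. The decrease at 500 nM was 0.30 ± 0.05 on the log2 scale (adjusted p = 1.77e-05).

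MEF2C, a MADS-box factor that supports B-cell proliferation after antigen-receptor signalling, had 160, 149 and 173 CPM in the DMSO libraries, 143, 158 and 166 CPM at 150 nM, and 133, 136 and 138 CPM at 500 nM. The DMSO and 150 nM libraries were mixed, and the 500 nM libraries lay below both. MEF2C fell by 0.24 ± 0.06 on the log2 scale at 500 nM (adjusted p = 0.00131), and its value by total-count scaling was -0.10 (adjusted p = 0.141).

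**Figure D2:**
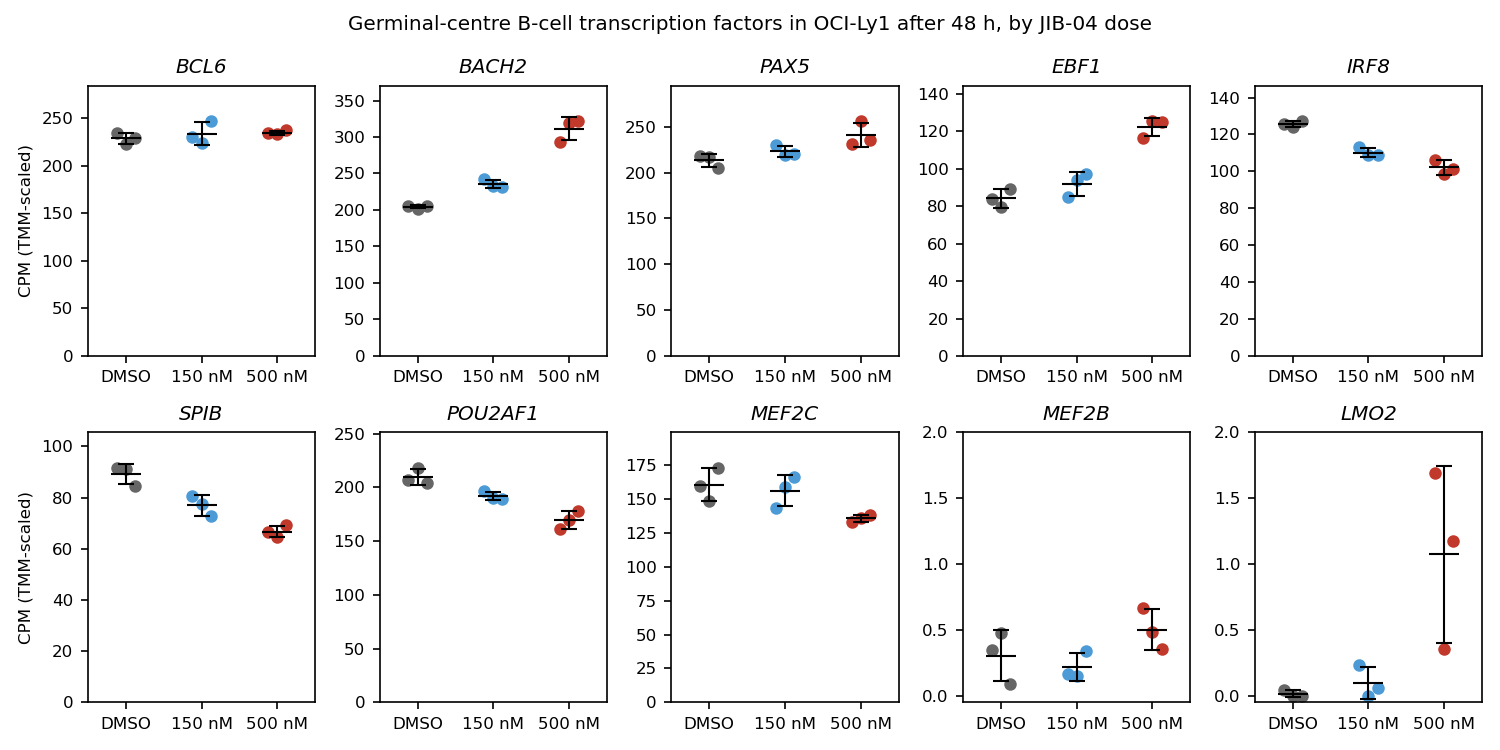
CPM of each of the 10 genes in DMSO, 150 nM and 500 nM JIB-04 libraries; points are single libraries, long ticks means and bars the SD of 3 libraries, with a separate axis for each gene. BACH2 is higher and SPIB, IRF8 and POU2AF1 are lower at each dose step, the BCL6 libraries overlap, and MEF2B and LMO2 stay below 2 CPM.

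The 2 remaining genes gave few counts. LMO2, a LIM-domain bridging factor commonly used to mark germinal-centre-type lymphoma, was close to silent in this line. It had 2, 0 and 0 counts in the DMSO libraries, 10, 0 and 2 counts at 150 nM, and 102, 16 and 63 counts at 500 nM. The 500 nM libraries were all above the others but differed among themselves, from 0.355 to 1.69 CPM. The 181 counts at 500 nM against 2 in DMSO gave a ratio of 64.4, with an exact 95% interval of 17.6 to 536 that covers counting error only. The fitted test called LMO2 higher (adjusted p = 1.58e-05). LMO2 had to be high at 500 nM to enter the test at all, and even there it had 1.07 ± 0.674 CPM.

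MEF2B, the germinal-centre member of its family and a known activator of BCL6, had 15, 13 and 4 counts in the DMSO libraries, 7, 6 and 11 counts at 150 nM, and 40, 22 and 19 counts at 500 nM. Its log2 fold change at 500 nM against DMSO was 0.77 ± 0.58, with a 95% interval of -0.41 to 1.97 and an adjusted p of 0.27. This row cannot be read as the level of MEF2B, since the table also has a row for the overlapping read-through gene MEF2BNB-MEF2B, which was at 0 in all 9 libraries. Of 121 such read-through rows in the table, 84 were at 0 in every library and 95 held 10 or fewer counts over all 9. The neighbour MEF2BNB had 2993 counts over the 9 libraries, against 137 for MEF2B. The sources used here do not give how reads in shared exons were counted. When the 3 rows were summed, the log2 fold change was -0.49 (adjusted p = 0.00232), opposite in sign to that of the MEF2B row and made up mostly of MEF2BNB.

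At 150 nM JIB-04, edgeR called 1 of the 8 abundant genes, BACH2, against 1.27% of all tested genes (0.954% higher and 0.318% lower). BACH2 rose by 0.20 ± 0.05 on the log2 scale (adjusted p = 0.0337), and the call was lost when any of 6 libraries was left out: DMSO replicates 1 and 2, 150 nM replicates 2 and 3, and 500 nM replicates 2 and 3 (adjusted p = 0.0564 to 0.18). A fit without the 500 nM group did not call it either (0.103). IRF8 (-0.19 ± 0.06, adjusted p = 0.102) and SPIB (-0.21 ± 0.06, adjusted p = 0.114) were not called, although their libraries did not overlap with DMSO. Both were called without 150 nM replicate 1 (adjusted p = 0.0308 for IRF8 and 0.022 for SPIB), and DESeq2 called IRF8 (0.029).

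POU2AF1 (-0.12 ± 0.05, adjusted p = 0.373), EBF1 (0.13 ± 0.06, adjusted p = 0.513), PAX5 (0.07 ± 0.05, adjusted p = 0.736), MEF2C (-0.04 ± 0.06, adjusted p = 0.878) and BCL6 (0.03 ± 0.05, adjusted p = 0.899) did not pass the test at 150 nM. The 95% interval for BCL6 was -0.07 to 0.13. Libraries at 150 nM and in DMSO did not overlap for 5 of the 8 genes, against 13.7% of tested genes. The fitted changes for LMO2 and MEF2B had adjusted p of 0.564 and 0.871.

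Between the doses, 2 of the 8 genes were higher at 500 nM than at 150 nM and 3 were lower, against 23.7% and 22.8% of tested genes (46.5% in all). The libraries of the 2 doses did not overlap for 7 of the 8, against 55% of tested genes. EBF1 was higher by 0.41 ± 0.06 on the log2 scale (adjusted p = 4.53e-06) and BACH2 by 0.40 ± 0.05 (1.71e-07). SPIB (-0.21 ± 0.06, adjusted p = 0.0082), MEF2C (-0.20 ± 0.06, 0.00742) and POU2AF1 (-0.18 ± 0.05, 0.00581) were lower, and none of these 3 was called by total-count scaling (adjusted p = 0.288 for SPIB, 0.289 for MEF2C and 0.383 for POU2AF1). POU2AF1 was not called either without 500 nM replicate 1 (adjusted p = 0.0547), nor MEF2C without 150 nM replicate 3 (0.0519).

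PAX5 (0.11, 95% interval 0.00 to 0.22), IRF8 (-0.11, 95% interval -0.22 to 0.00) and BCL6 (0.01, 95% interval -0.10 to 0.11) did not differ beyond the threshold between the doses, with adjusted p of 0.0884, 0.109 and 0.924. PAX5 was called higher without 150 nM replicate 1 (0.13, adjusted p = 0.0453) and by total-count scaling (0.23, 0.00059). IRF8 was called lower after removal of library trends with transcript GC content (-0.14, adjusted p = 0.00621). The comparisons share libraries, so their values are set side by side and not correlated.

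**Figure D3:**
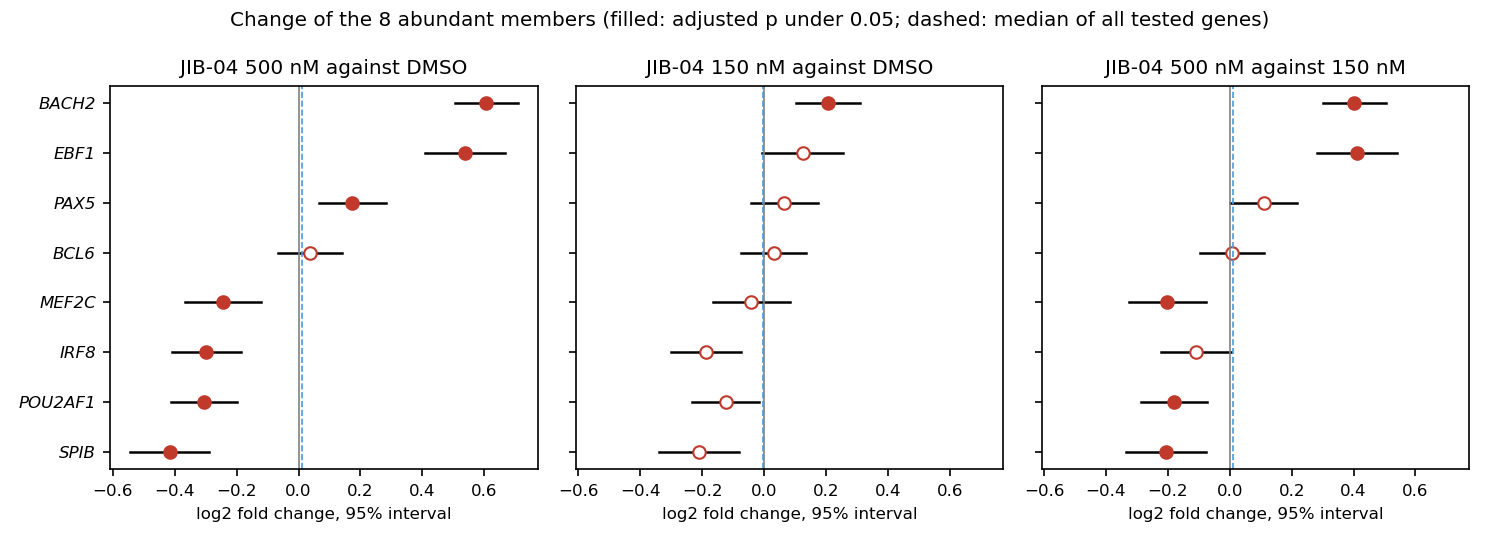
Log2 fold change with its 95% interval for the 8 abundant genes in the 3 comparisons; filled points have an adjusted p under 0.05 and the dashed line is the median of all tested genes. At 500 nM against DMSO, BACH2, EBF1 and PAX5 lie above 0 and MEF2C, IRF8, POU2AF1 and SPIB below it, and at 150 nM BACH2 is the called gene.

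Across the 9 libraries, the genes outside the lists whose log2 CPM followed BACH2 most closely were BBC3 and TNKS1BP1 (Pearson r = 0.989 each) and DBN1 (r = 0.988), among 9492 genes averaging 5 CPM or more. For BCL6 they were INTS12 (r = 0.872), PARG and ZNF429 (0.866 each). The BCL6 groups overlapped, and these values are the highest of 9492 correlations over 9 libraries. Whether they exceed chance was not tested. These 9 libraries share 3 dose groups, so the values for BACH2 mainly rank genes that rose with dose.

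Relatives of the 10 genes changed as well. Of 20 paralogues, 16 were tested, and 9 rose and 3 fell at 500 nM (75% called), with a median log2 fold change of 0.39. Over all tested genes 52% were called, 26.3% higher and 25.6% lower, with a median of 0.01. IRF4, a factor of both activated B cells and plasma cells, rose to 451 ± 13.9 CPM at 500 nM, against 245 ± 16.1 CPM in DMSO (0.88 ± 0.05, adjusted p = 5.87e-14). LMO4 (0.99 ± 0.07), IRF1 (1.18 ± 0.09) and IRF7 (1.90 ± 0.14) rose too, while LMO3 (-1.05 ± 0.09) and IRF5 (-0.33 ± 0.13) fell. The MEF2 family divided, with MEF2A higher (0.44 ± 0.06, adjusted p = 4.28e-07), MEF2D lower (-0.49 ± 0.09, adjusted p = 4.04e-05) and MEF2C lower as given above. SPI1, the ETS paralogue of SPIB, had 18.4 ± 1.09 CPM at 500 nM and 18.9 ± 1.95 CPM in DMSO (-0.04 ± 0.10, adjusted p = 0.755), and was called lower with GC trends removed (-0.25, adjusted p = 0.00805).

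Partners of these factors went both ways in the same comparison, with 7 of 18 tested genes higher and 4 lower (median 0.09). In this list 61.1% were called, against 52% of all tested genes, which also went both ways. Both octamer-binding partners of POU2AF1 fell with it, POU2F1 by 0.73 ± 0.07 and POU2F2 by 0.79 ± 0.10 on the log2 scale (adjusted p = 2.84e-10 and 1.27e-07). HDAC5, a deacetylase that binds MEF2 factors, rose by 1.26 ± 0.09, and TLE4, a corepressor of PAX5, by 0.92 ± 0.07. TCF12, an E protein, rose by 0.42 ± 0.05.

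Of 14 genes for corepressors and partners of BCL6, 6 rose and 5 fell at 500 nM (median 0.09). The share called was 78.6%, against 52% of all tested genes. TBL1X (0.75 ± 0.08) and ZBTB17 (0.65 ± 0.08) rose, and KDM1A (-0.48 ± 0.05) and HDAC3, a histone deacetylase (-0.32 ± 0.06), fell. NCOR1 was not called (0.08 ± 0.05, adjusted p = 0.231), though it was higher by total-count scaling (0.22, adjusted p = 0.00103) and with GC trends removed (0.12, 0.0178).

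Other B-lineage transcription factors divided too, with 9 of 21 higher and 7 lower (median 0.11). The lymphoid zinc-finger genes IKZF1 (-0.86 ± 0.05, adjusted p = 2.04e-14) and IKZF3 (-0.61 ± 0.04, 4.45e-12) fell, as did ID3 (-0.77 ± 0.08), an inhibitor of E proteins. HHEX, a homeobox gene, rose (1.85 ± 0.14). In all, 76.2% of this list was called, against 52% of all tested genes. This share includes KLF2 among the genes that rose. KLF2 had 0 counts in DMSO and entered the test only through the 500 nM libraries where it is high.

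Genes downstream of the 10 factors did not move one way. Among 21 genes that BCL6 is known to repress, 17 were tested, and 8 rose and 1 fell at 500 nM (median 0.24). The share called was 52.9%, near the 52% of all tested genes, of which 26.3% were called higher and 25.6% lower. Under total-count scaling 16 of these 17 genes were called. CDKN1A, the cell-cycle inhibitor, rose by 2.95 ± 0.07 on the log2 scale, the antiviral factor gene IRF7 by 1.90 ± 0.14, the migration receptor gene S1PR1 by 1.29 ± 0.20 and the activation marker gene CD69 by 1.16 ± 0.11. CDKN1A already rose at 150 nM, by 1.14 ± 0.07 (adjusted p = 1.13e-11), and CD69 by 0.56 ± 0.12 (0.0076), a call lost for CD69 without 150 nM replicate 2 (0.0925).

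PRDM1, the plasma-cell regulator that BCL6 and BACH2 both repress, stayed low. It had 1.51, 2.31 and 2.36 CPM in the DMSO libraries, 1.50, 1.59 and 1.42 CPM at 150 nM, and 1.74, 1.15 and 1.57 CPM at 500 nM. The groups at 500 nM and in DMSO overlapped (-0.45 ± 0.26, adjusted p = 0.146). Among 7 tested plasma-cell genes, 4 rose, including XBP1 (1.63 ± 0.12) and TNFRSF17 (1.38 ± 0.08), and 2 fell, among them MZB1 (-0.92 ± 0.06). Of these 7 genes 85.7% were called, against 52% of all tested genes. Some genes, such as IRF4, IRF7 and TCF12, are in several lists. The shares called in the lists are therefore not separate observations. SDC1, a defining plasma-cell marker, was not tested and had 0.131 ± 0.0923 CPM at 500 nM and 0 counts in DMSO.

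Of 15 B-cell genes that members of the group are known to activate, 14 were tested, and 3 rose and 7 fell at 500 nM (median -0.16). The share called was 71.4%, against 52% of all tested genes. BTK (-0.72 ± 0.05), BANK1 (-0.80 ± 0.08) and MS4A1 (-0.47 ± 0.06) fell.

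**Figure D4:**
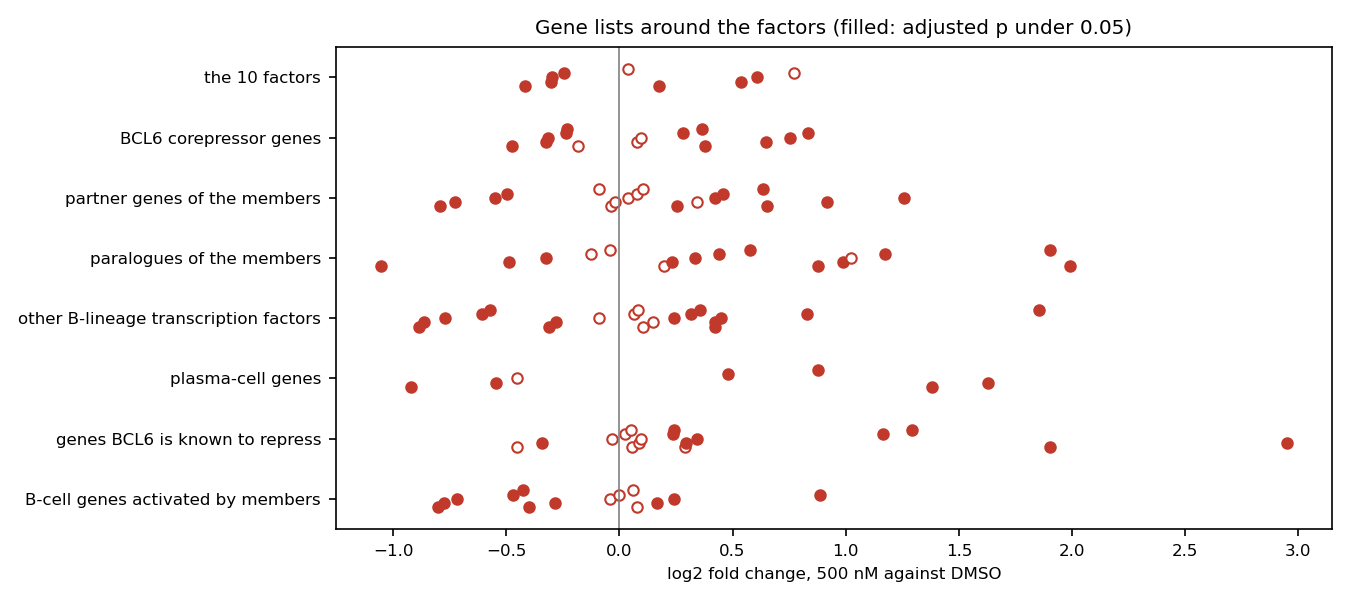
Log2 fold change at 500 nM JIB-04 against DMSO for tested genes of each list, 1 point per gene, filled where the adjusted p is under 0.05; genes with 3 or fewer counts in DMSO, LMO2 among them, are left out. Points lie on both sides of 0 in every list, and the largest increase is that of CDKN1A (2.95).

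Summed levels of some marker lists differed between groups. The 5 B-cell markers summed to 1269 to 1317 CPM in DMSO, 1266 to 1312 CPM at 150 nM and 1012 to 1044 CPM at 500 nM. The DMSO and 150 nM sums overlapped. At 500 nM 3 of the 5 markers (MS4A1, CD79B and CD22) fell relative to DMSO, 60% called against 52% of all tested genes. The 6 T-cell markers summed to 18.7 to 21.2 CPM in DMSO, 14.2 to 16.9 CPM at 150 nM and 7.23 to 8.05 CPM at 500 nM, with TRAT1 at 0 throughout. CD3G made up 4.96 ± 0.348 CPM at 500 nM and 12.5 ± 1.52 CPM in DMSO. The 6 myeloid markers summed to 2.46 to 3.04 CPM in DMSO, 1.22 to 2.11 CPM at 150 nM and 1.49 to 2.11 CPM at 500 nM. The 4 NK-cell markers stayed at or below 0.843 CPM in every library, and their sums overlapped in all 3 groups. The part of these shifts in the values above was not tested. All libraries come from 1 established line, so these sums are not a measure of shares of T, myeloid or NK cells. In bulk RNA, fewer cells carrying a transcript and less of it per cell cannot be told apart.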

How the data were processed

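RNA of 9 OCI-Ly1 libraries was analysed. The authors deposited raw counts of reads per gene symbol, and featureCounts 1.4.6, Subread, Bowtie2 2.2.6 and TopHat2 2.0.14 are listed with builds hg19 and mm10, per the submitters' processing notes. The sources used here do not give annotation, strand setting or treatment of overlapping genes. Titles gave the groups and numbers of the libraries.

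Low rows were removed by filterByExpr with a minimum count of 10 and total of 15, and the rest was scaled by TMM in edgeR 4.0.16 (R 4.3.3). A robust quasi-likelihood model was fitted to all 9 libraries, with Benjamini-Hochberg adjustment over 15089 genes and calls at 0.05. Standard errors were taken as unshrunk log2 fold change over the root of F. Alternatives used DESeq2 1.42.0 and limma 3.58.1, other scalings and filters, a replicate block, GC offsets (95.5% of tested genes had a value) and left-out libraries. The fits were also run on counts simulated from the mean levels and spread of these data, with changes placed only in genes of higher counts. Such a run cannot test how well the model suits these data or low rows such as LMO2 and MEF2B.

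All 10 members were named. From each list, up to 4 called genes with the smallest p at 500 nM were named, plus 9 fixed ones; other genes were named after their values were seen. Some genes that this rule names are not reported here. Members and lists were chosen with earlier results of these data known. Depth was 28476845 to 57198613 counts; library pairs within groups exceeded sampling noise (chi-square per degree of freedom 6.59 to 16.0), and counting intervals cover counting error only.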

Additional observations from a re-analysis of the deposited data

How the results depend on the processing

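At 500 nM against DMSO, 8 of the 10 genes were called (52% of all tested genes), and between the doses 6 (46.5%). Both counts include LMO2, which entered the test through the 500 nM libraries where it is high. These counts stayed within 1.5 times under every alternative run, at 7 to 8 and 5 to 7 with a library left out. Their division into higher and lower moved with the scaling. By total-count scaling 5 genes were higher and 3 lower at 500 nM against DMSO, against 4 and 4 with TMM. Between the doses 5 were higher and 0 lower by total-count scaling, against 3 and 3 with TMM. At 150 nM against DMSO the count was 1, and it was 2 by DESeq2, 0 in the fit of the 6 libraries compared and 0 to 3 with a library left out. Over all genes, 192 were called at 150 nM, against 320 without a filter, 101 in the fit of the 6 libraries compared, 308 with the replicate block, 352 with GC trends removed, and 98 to 545 with a library left out. The extremes were 545 without 150 nM replicate 1, 98 without 150 nM replicate 2 and 107 without DMSO replicate 2. Total-count scaling made 69.5% of calls at 500 nM against DMSO higher, against 50.7% with TMM, and 71.1% against 50.9% between the doses. With GC trends removed, SPI1 was at -0.22 between the doses (adjusted p = 0.0212), against 0.00 without. MEF2B was at -0.49 at 500 nM against DMSO when summed with its overlapping rows. For SPI1 the cause was not tested. Same-numbered libraries deviated together at r = -0.0525 to 0.104, and 0 of 9 libraries correlated best with their own number in both other groups, so the numbers were not taken as pairs. With the replicate block the counts of the 10 genes called were the same in all 3 comparisons. LMO2 and MEF2B could not be tested with a filter of 1 CPM. With 4 to 40 counts per library, the 95% interval of the MEF2B change at 500 nM ran from -0.41 to 1.97 on the log2 scale. Low depth and reads left out of this row were not told apart.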
